A study of Mus musculus with 6 samples.

Results

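The sirtuins are a family of 7 genes in the mouse, *Sirt1* to *Sirt7*, and every probe whose symbol in the deposited table is one of these names was taken. Probes were found for 6 of the 7 genes. They number 9 of the 25697 probes (18138 symbols) of the array, and 7 of the 9 were detected on all 6 arrays, which means a detection p under 0.05 against the negative controls. *Sirt4* has no probe by symbol, gene identifier, transcript or synonym and was not analysed here. The arrays were Illumina MouseRef-8 v2 BeadChips hybridized with cochlear RNA, 1 per sample, from 3 WT and 3 *Cmah*-null mice. All 6 mice were 12 months old and C57BL/6 by the labels, C57BL/6J by the study's methods. The *Cmah*-null mice carried the Cmah tm1Ykoz knockout allele, the sex of the animals is not given, and no further treatment is recorded for either genotype. *Cmah* encodes the hydroxylase that makes the sialic acid Neu5Gc, and the comparison addresses gene expression in mice that lose hearing with age.

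Sirtuins remove acetyl and other acyl groups from lysines of proteins, and each reaction consumes a molecule of NAD+, so their activity depends on the NAD+ supply as well as on their own amounts. *Sirt1*, *Sirt6* and *Sirt7* encode mainly nuclear proteins, the product of *Sirt2* is mainly cytosolic, and *Sirt3*, *Sirt4* and *Sirt5* encode mitochondrial proteins. SIRT3 is the main deacetylase of mitochondria and acts on enzymes of fatty acid oxidation, the citrate cycle and antioxidant defence. In the cochlea it is known for its part in the protection against age-related hearing loss by a restricted diet. An array measures messenger RNA only, and none of the values below is a protein level or an enzyme activity.

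The probes themselves set what each value means, because *Sirt5* and *Sirt6* are read by several of them and some of these lie on nearly the same bases. Each probe is 50 bases long, and its first 30 bases are shown from the deposited annotation, 5′ to 3′, with the stretch shared by an overlapping pair in capitals.
Sirt1 ILMN_2643159: ctgttgcctgttgaggatttggtgtaatgt
Sirt2 ILMN_2676181: gaagcagccttccctaacttctaattattc
Sirt3 ILMN_2737480: caggcaggcgatgcactagggcaatctagc
Sirt5 ILMN_2711045: ggacctgCAGTACGGTATCCTGGAGTGCTA
Sirt5 ILMN_2707079: CAGTACGGTATCCTGGAGTGCTAAAGCAGG
Sirt6 ILMN_2684909: cTAAGCGCCGAGGAGGCCGTCTGGTCATTG
Sirt6 ILMN_2684910: TAAGCGCCGAGGAGGCCGTCTGGTCATTGT
Sirt6 ILMN_2671176: tgacacagagccaccaagggcccaccaggc
Sirt7 ILMN_1253970: gggtatgcggcacagggagaatctaactaa
The *Sirt5* probes are shifted by 7 bases and share 43, and the first *Sirt6* pair is shifted by 1 base and shares 49. These pairs read the same piece of transcript and are not separate evidence. The other *Sirt6* probe starts at base 1549 of the transcript, away from the pair at bases 706 and 707. Across the 9 probes the GC content runs from 46% in *Sirt1* to 64% in *Sirt6* ILMN_2671176. The annotation places *Sirt1* at 10qB4, *Sirt2* at 7qA3, *Sirt3* at 7qF5, *Sirt5* at 13qA4, *Sirt6* at 10qC1 and *Sirt7* at 11qE2. It names no genome build, so no base coordinates are given.

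Precision is limited by the small number of arrays, each of which detected 13873 to 15223 probes. *Cmah*-null replicates 1 and 2 were unusually alike (SD of their log2 difference over all probes 0.13, against 0.31 to 0.64 in the remaining pairs), and whether they come from separate mice cannot be read from the data. Probes on 3 arrays, WT replicate 1 with *Cmah*-null replicates 1 and 2, had a median of 32 or 34 beads, against 38 or 39 elsewhere. The *Cmah* probe cannot check the genotypes, since it was detected on 1 WT and 2 *Cmah*-null arrays, with log2 signals of 7.47 ± 0.34 (SD, n = 3) and 7.73 ± 0.40 (SD, n = 3).

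*Sirt3* was the sirtuin whose arrays separated by genotype, downwards, in the deposited log2 values, which the authors had quantile normalized. Its log2 signal was 11.75, 11.70 and 11.52 in WT replicates 1 to 3. In the *Cmah*-null mice it was 11.20, 11.12 and 11.07. Every *Cmah*-null array was therefore below every WT array, by 0.53 on average (log2 difference -0.53, SE 0.09, 95% interval -0.75 to -0.30), and the WT level was 1.44 times the *Cmah*-null level (95% interval 1.23 to 1.68). The unadjusted limma p was 0.00132 and the adjusted p over all probes was 0.396, and an exact permutation test, two-sided, gave its smallest possible p of 0.1. *Sirt3* ranked 83 of 25697 probes by p, while 4.07% of all probes and 7.66% of those detected on all 6 arrays had a lower difference. The bead error of the probe within an array, 0.03 to 0.08 on the log2 scale, was smaller than this difference. Within the arrays of fewer beads (1 WT, 2 *Cmah*-null) the log2 difference was -0.59, and within the other 3 (2 WT, 1 *Cmah*-null) it was -0.54. Each of these rests on 1 array of a genotype and on the deposited values.

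**Figure D1:**
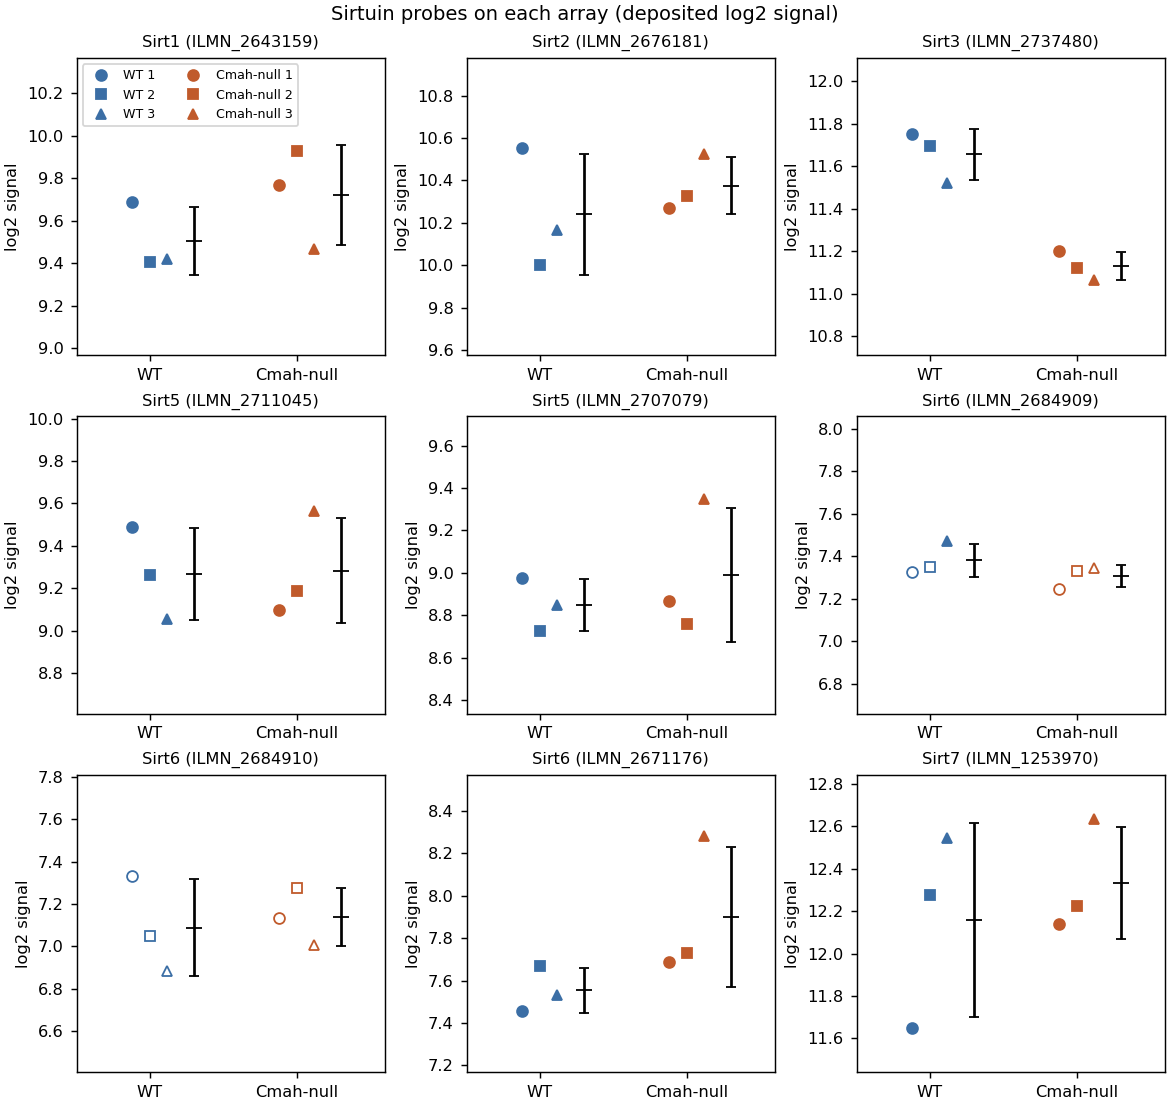
Log2 signal of each sirtuin probe on each array, in the deposited quantile-normalized values, with WT in blue, *Cmah*-null in orange and 1 symbol per replicate number. Hollow symbols were not detected, black marks give the mean ± SD of 3 arrays, and each panel spans the same log2 range around its own values. In *Sirt3* the WT arrays, 11.52 to 11.75, lie above the *Cmah*-null arrays, 11.07 to 11.20.

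The *Sirt3* difference depended on the normalization. The raw signals were 3616, 2548 and 2111 in WT and 3398, 2961 and 1908 in *Cmah*-null mice, which overlap almost fully. Their means were 2758 ± 774 (SD, n = 3) and 2756 ± 766 (SD, n = 3), and the exact permutation p of the raw log2 difference of -0.01 was 1.0. Quantile normalization replaces a signal by the average signal at its rank, and it was the rank of *Sirt3* that differed. In WT arrays 93.3%, 93.1% and 92.1% of all probes were dimmer than *Sirt3*, against 90.2%, 89.7% and 89.3% in *Cmah*-null arrays. The raw signal at the 90th percentile of probes was 2420, 1784 and 1650 in WT replicates 1 to 3. In the *Cmah*-null replicates it was 3331, 3059 and 2051, so that the bright end was brightest on *Cmah*-null replicates 1 and 2. When each array was only scaled to the same median, the log2 difference of *Sirt3* was -0.03 (SE 0.26, adjusted limma p 0.975), and the median of the 12410 probes detected on all 6 arrays was 0.30. Against those medians, *Sirt3* stood at -0.55 in the deposited values, where the median was 0.03, and at -0.33 with median scaling. Those medians cover probes of all brightness and are no baseline for the bright end alone.

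*Sirt5*, the mitochondrial enzyme that removes succinyl, malonyl and glutaryl groups, showed no separation by genotype. Probe ILMN_2711045 gave log2 signals of 9.49, 9.26 and 9.06 in WT and 9.10, 9.19 and 9.56 in *Cmah*-null mice. The overlapping probe ILMN_2707079 gave 8.97, 8.73 and 8.85 in WT and 8.87, 8.76 and 9.35 in *Cmah*-null mice. In both probes the highest array was *Cmah*-null replicate 3 and the other *Cmah*-null arrays lay within or near the WT range. The log2 differences were 0.01 (SE 0.17, 95% interval -0.40 to 0.43) and 0.14 (SE 0.17, 95% interval -0.29 to 0.57), with adjusted limma p of 0.987 and 0.841. Without *Cmah*-null replicate 3 they were -0.13 and -0.04. The genotype differences of these overlapping probes differed from each other by -0.13 (exact permutation p 0.4).

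*Sirt7*, a nuclear deacetylase that acts on ribosomal DNA transcription, was the other sirtuin whose separation by genotype changed with the normalization. Its deposited log2 signals were 11.65, 12.28 and 12.54 in WT and 12.14, 12.22 and 12.63 in *Cmah*-null mice. These overlap, and the difference was 0.17 (SE 0.26, 95% interval -0.47 to 0.82, adjusted limma p 0.871), or -0.08 without WT replicate 1. The raw signals were 3382, 3876 and 4139 in WT and 6534, 6217 and 5995 in *Cmah*-null mice. Here every *Cmah*-null array exceeded every WT array, with a raw log2 difference of 0.72 (exact permutation p 0.1). With median scaling the difference was 0.70 (SE 0.15, unadjusted limma p 0.00194, adjusted p 0.106), or 0.40 above the median of detected probes. That median covers probes of all brightness and is no baseline for a bright probe. On each array 92.8% to 96.8% of probes were dimmer than *Sirt7*, and the bright end was brightest on *Cmah*-null replicates 1 and 2. How far bright probes in general shifted was not tested. *Sirt7* was thus separated by genotype in the 2 scalings where *Sirt3* was not, and overlapped in the deposited values, where *Sirt3* was separated.

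**Figure D2:**
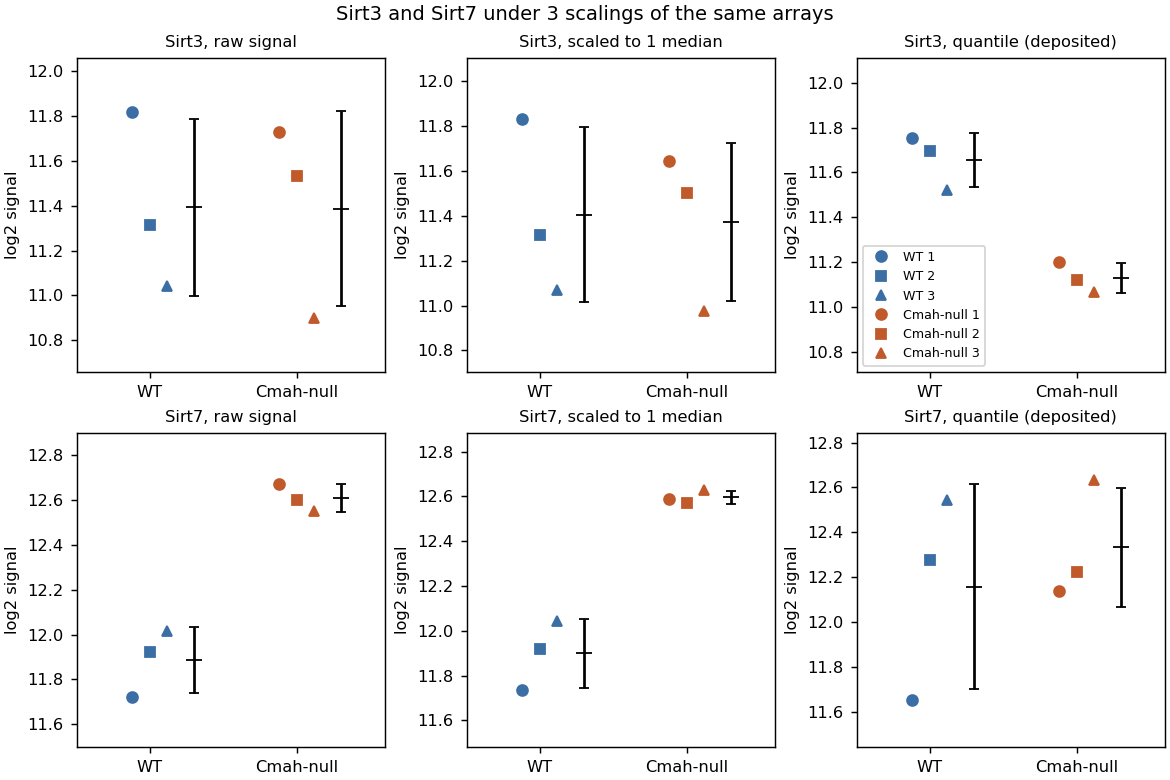
Log2 signal of *Sirt3* (top) and *Sirt7* (bottom) on each array as raw signal, after scaling arrays to 1 median, and as deposited after quantile normalization, with WT in blue, *Cmah*-null in orange and black marks for the mean ± SD of 3 arrays. *Sirt3* separates by genotype in the deposited values (difference -0.53) and *Sirt7* in the raw (0.72) and median-scaled (0.70) values.

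*Sirt1*, the best known nuclear sirtuin and a deacetylase of transcription factors such as p53 and the FOXO proteins, had log2 signals of 9.69, 9.40 and 9.42 in WT. In *Cmah*-null mice it had 9.77, 9.93 and 9.46. *Cmah*-null replicates 1 and 2 were above all WT arrays and replicate 3 was within their range. The log2 difference was 0.22 (SE 0.15, 95% interval -0.16 to 0.59, adjusted limma p 0.724), and the exact permutation p was 0.2. Without *Cmah*-null replicate 3 it was 0.34, with an unadjusted limma p of 0.0347 and an adjusted p of 0.341. Without *Cmah*-null replicate 2 it was 0.11, and with the number of beads as a block it was also 0.11. The difference was larger with median scaling, at 0.55 (SE 0.32, adjusted limma p 0.602), where the median of detected probes was 0.30. In raw signals it was 0.58 (SE 0.35).

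*Sirt6*, a chromatin deacetylase with roles in DNA repair and glucose metabolism, was read close to background. Probe ILMN_2671176, detected on all 6 arrays, gave log2 signals of 7.46, 7.67 and 7.53 in WT and 7.69, 7.73 and 8.28 in *Cmah*-null mice. The groups did not overlap, by a margin of hundredths between WT replicate 2 and *Cmah*-null replicate 1, and *Cmah*-null replicate 3 was the highest. The difference was 0.35 (SE 0.18, 95% interval -0.09 to 0.78, adjusted limma p 0.646, exact permutation p 0.1). It was 0.15 without *Cmah*-null replicate 3 and 0.84 with neqc, which subtracts background before the quantile step. The overlapping pair did not measure the gene in most samples. ILMN_2684909 was detected on WT replicate 3 alone and ILMN_2684910 on 0 arrays, so their log2 differences of -0.07 and 0.05 are those of probes not well above background and no fold is given.

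*Sirt2*, a cytosolic deacetylase of tubulin that is abundant in myelinating cells, had log2 signals of 10.55, 10.00 and 10.17 in WT and 10.27, 10.33 and 10.53 in *Cmah*-null mice. WT replicate 1 was the highest array and WT replicate 2 the lowest, so the *Cmah*-null values lay inside the WT range. The difference was 0.13 (SE 0.16, 95% interval -0.27 to 0.54, adjusted limma p 0.839, exact permutation p 0.5). It ranged from 0.014 without WT replicate 2 to 0.29 without WT replicate 1. Within the arrays of fewer beads it was -0.26 and within the others 0.44, each resting on 1 array of a genotype. With median scaling it was 0.55 (SE 0.27, adjusted limma p 0.479), or 0.25 above the median of detected probes of all brightness. Of the 11 myelin markers listed, 2 were higher and 9 lower, with a median log2 difference of -0.38 in the deposited values, -0.17 without *Cmah*-null replicate 3 and 0.10 with median scaling, and their part in the value of *Sirt2* was not tested.

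Over the family, 0 of the 9 probes passed an adjusted limma p of 0.05 (0% of all probes did), and 1 of 9, *Sirt3*, had an unadjusted p under 0.05. Among all probes 3.78% were lower and 4.77% higher at that unadjusted p. At 1.5-fold with that p, the rule of the study, 0 of 9 sirtuin probes passed in the deposited values and 2.71% of all probes did. *Sirt7* passed it with median scaling and *Sirt3* passed it without WT replicate 3. Of the 7 probes detected on all 6 arrays, *Sirt3* did not overlap between groups downwards (7.86% of such probes did not) and *Sirt6* ILMN_2671176 did not overlap upwards (11.5% did not). With the number of beads as a block, *Sirt3* (-0.57), *Sirt6* ILMN_2671176 (0.46) and *Sirt7* (0.38) each had an unadjusted limma p under 0.05, with adjusted p of 0.110, 0.172 and 0.222. The shares of all probes with that block, with median scaling or without an array are not given here. Calls in those settings therefore cannot be set against them.

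**Figure D3:**
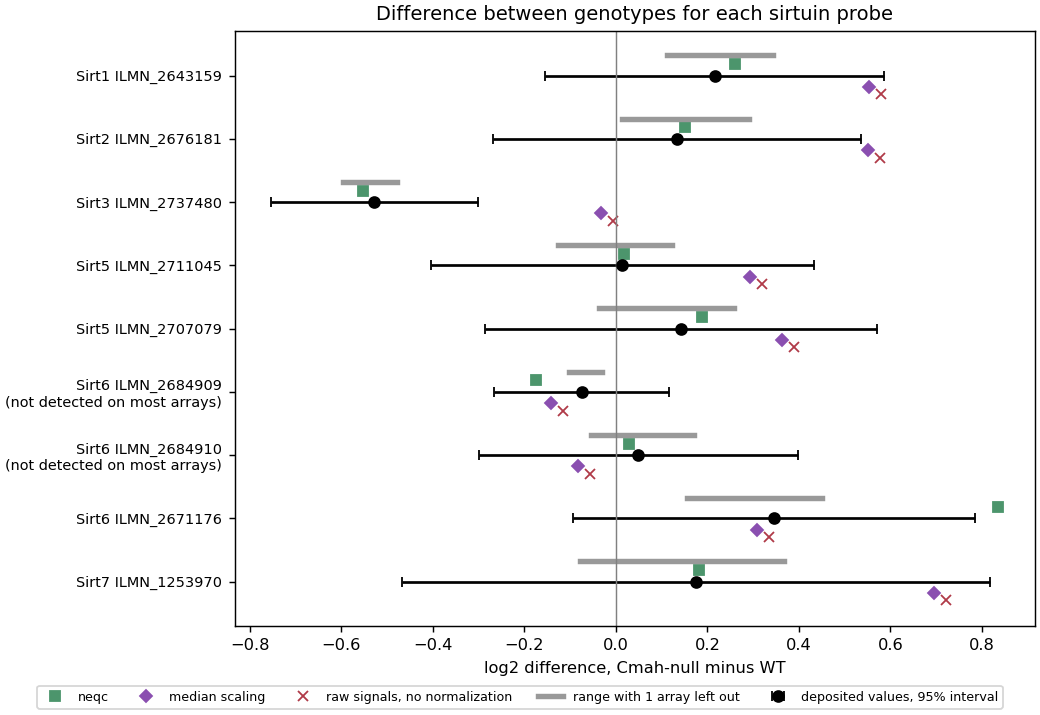
Log2 difference, *Cmah*-null minus WT, of each sirtuin probe, with the deposited values in black and their 95% limma interval, the values from neqc, median scaling and raw signals as coloured marks, and the range over leaving out each array as a grey bar. *Sirt3* is the only probe whose interval in the deposited values, -0.75 to -0.30, does not reach 0, and its median-scaled and raw marks lie at -0.03 and -0.01.

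A ratio of probes on the same array does not depend on a single factor applied to the whole array. It does change with quantile normalization or background subtraction, which act differently on bright and dim probes. The ratio was used to ask whether *Sirt3* differed between genotypes relative to its relatives. In the deposited values *Sirt3* was lower in *Cmah*-null mice relative to all 6 other detected sirtuin probes. The log2 ratio of *Sirt3* to *Sirt1* differed by -0.74, that to *Sirt2* by -0.66, those to the *Sirt5* probes by -0.54 and -0.67, that to *Sirt6* by -0.87 and that to *Sirt7* by -0.70. The groups did not overlap for 5 of the 6 pairs, with *Sirt7* the exception, and the exact permutation p was 0.1 for each of the 5 (0.12 after Benjamini-Hochberg over the 6 pairs) and 0.2 for *Sirt7*. With raw signals, which had not been quantile normalized, the differences were -0.58 for *Sirt1*, -0.58 for *Sirt2*, -0.32 and -0.39 for *Sirt5*, -0.34 for *Sirt6* and -0.73 for *Sirt7*. All 6 kept their direction, and the groups stayed apart for *Sirt1* and *Sirt2* alone (exact permutation p 0.1 each, 0.30 after adjustment over the 6 pairs). To *Sirt1* the raw log2 ratio was 2.02, 2.16 and 1.98 in WT and 1.51, 1.21 and 1.70 in *Cmah*-null mice. To *Sirt2* it was 1.19, 1.63 and 1.30 in WT and 0.97, 0.81 and 0.58 in *Cmah*-null mice. The 6 ratios share the *Sirt3* values and are not independent. No ratio passed 0.05, which 3 against 3 arrays cannot reach in this test, and a ratio does not show which of a pair differs. The ratio to *Sirt7* was -0.40 without WT replicate 1, and that to *Sirt6* was -1.39 with neqc.

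**Figure D4:**
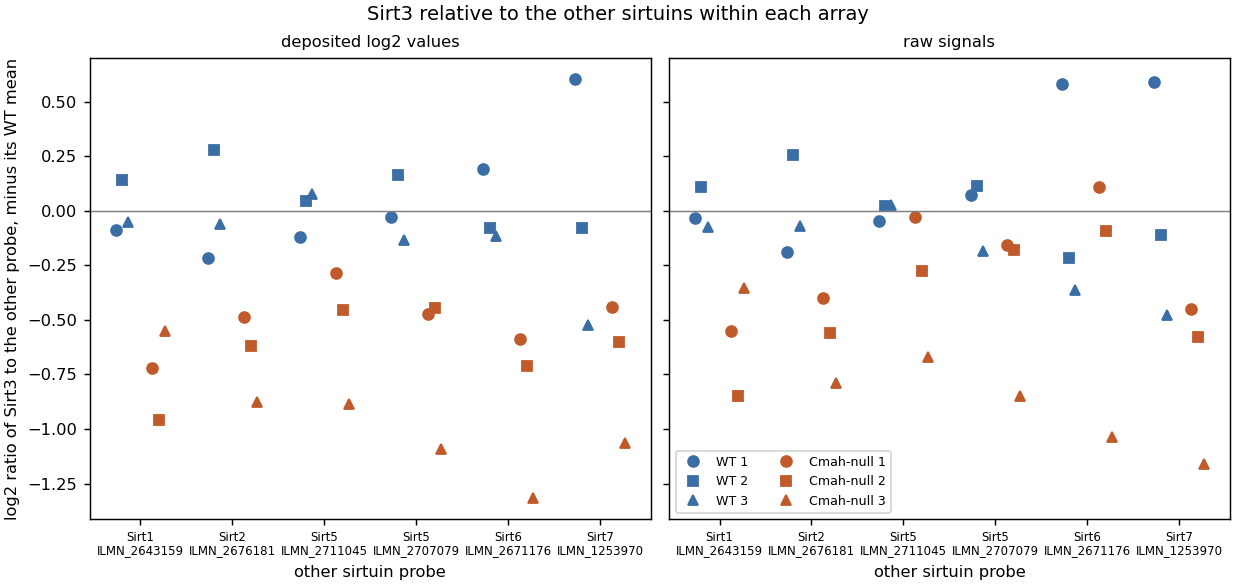
Log2 ratio of *Sirt3* to each other detected sirtuin probe on the same array, minus the WT mean of that ratio, from the deposited values (left) and the raw signals (right), with WT in blue, *Cmah*-null in orange and 1 symbol per replicate number. The group means differ by -0.54 to -0.87 on the left and by -0.32 to -0.73 on the right, where the groups overlap for every pair but those with *Sirt1* and *Sirt2*.

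The supply of NAD+ was followed through a list of 18 genes of its synthesis and salvage, of which 9 were detected on at least 3 arrays. At 1.5-fold with an unadjusted p under 0.05, 1 was lower and 0 higher, where 2.31% of 11477 genes were lower and 2.54% higher by this rule. It was *Nampt*, the rate-limiting enzyme of NAD+ salvage, with log2 signals of 9.06, 10.00 and 9.91 in WT and 9.04, 8.64 and 8.87 in *Cmah*-null mice. The groups were apart by hundredths at WT replicate 1, and the difference was -0.81 (SE 0.27, adjusted limma p 0.545). The median over the 9 genes was 0.10, beside 0.04 over all genes. With median scaling *Nampt* was at -0.50 and 0 genes of the list passed, and 0 passed with *Cmah*-null replicates 1 and 2 averaged. Of 7 detected genes for other enzymes that use NAD+ or its nicotinamide product, 0 passed the rule, and 3 passed upwards with median scaling. The largest differences among those detected on all 6 arrays were 0.74 (SE 0.35) in *Parp14*, a mono-ADP-ribosyltransferase, and 0.38 (SE 0.12) in *Parp3*, an ADP-ribosyltransferase of DNA repair, and of these *Parp3* had an unadjusted limma p under 0.05.

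Around the nuclear sirtuins the called genes went both ways among SIRT1 substrates alone in the deposited values. Those of the SIRT6 list and of the zinc-dependent deacetylases went upwards only. All called genes went upwards with median scaling, which put the median of all detected probes at 0.30. With median scaling 8 SIRT1 substrates, 1 SIRT1 regulator, 2 genes of the SIRT6 list, 4 of the SIRT7 list and 3 zinc-dependent deacetylases passed the rule upwards, and 0 genes of these lists passed downwards. The share of all genes that passes with median scaling is not given here. These counts, and those of other lists with that scaling, therefore cannot be set against it. In the deposited values 2.31% of 11477 genes passed downwards and 2.54% upwards. Of 7 detected regulators of SIRT1 all were higher and 0 passed the rule, with a median log2 difference of 0.20 (*Hic1*, a repressor of *Sirt1*, 0.59, SE 0.37, and *Elavl1*, which binds its messenger RNA, 0.39, SE 0.10). That median was 0.07 without WT replicate 3. Of 20 detected SIRT1 substrates, 2 passed upwards and 2 downwards (2 and 0 without *Cmah*-null replicate 3). *Per2*, a repressor of the circadian clock, was 10.86, 10.68 and 11.13 in WT and 11.96, 11.96 and 12.45 in *Cmah*-null mice, a difference of 1.23 (SE 0.19, adjusted limma p 0.365). *Foxo1*, a transcription factor of fasting and insulin signalling, was 0.82 higher (SE 0.23, adjusted limma p 0.479), while *Ppargc1a*, a coactivator of mitochondrial genes, was at -0.65 (SE 0.26) and *Xrcc6*, the Ku70 repair protein, at -0.64 (SE 0.24). Of 12 detected partners and targets of SIRT6, 1 passed, the glucose transporter gene *Slc2a1* (0.79, SE 0.30), and without *Cmah*-null replicate 3 the list had 0 upwards and 1 downwards. Of 10 detected partners and targets of SIRT7 in ribosomal RNA synthesis, 0 passed, and the largest differences were -0.50 (SE 0.63) in *Npm1* and 0.47 (SE 0.10) in *Rrp9*. The zinc-dependent histone deacetylases, the other class of lysine deacetylase, had 1 of 10 past the rule, *Hdac4* (0.61, SE 0.12, adjusted limma p 0.397), and a median of 0.02, and without *Cmah*-null replicate 3 it had 0 in either direction. Of 16 detected SIRT2 substrates *Foxo1* alone passed, and the median was 0.05.

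Messenger RNAs of the proteins that the mitochondrial sirtuins act on were mostly lower in the deposited values, while median scaling brought the medians of their lists to -0.10 (SIRT3), -0.07 (SIRT4) and 0.25 (SIRT5). Of 19 detected SIRT3 substrates 15 were lower and 4 higher, with a median log2 difference of -0.44, beside 0.04 over all genes. By the rule 5 (26.3%) passed downwards and 0 upwards, where 2.31% of 11477 genes were lower and 2.54% higher. The 5 were *Acadm* (-1.10, SE 0.23), *Pdha1* (-1.02, SE 0.34), *Fh1* (-0.92, SE 0.31), *Sod2* (-0.72, SE 0.23) and *Acadl* (-0.67, SE 0.24). *Acadm* and *Acadl* encode acyl-CoA dehydrogenases of fatty acid oxidation, *Pdha1* a subunit of pyruvate dehydrogenase, *Fh1* fumarase and *Sod2* the superoxide dismutase of mitochondria. *Acadm* was 14.68, 13.97 and 14.19 in WT and 13.33, 13.35 and 12.86 in *Cmah*-null mice, with an adjusted limma p of 0.397. *Sod2* was 13.91, 13.52 and 13.12 in WT and 12.97, 12.90 and 12.53 in *Cmah*-null mice, with an adjusted limma p of 0.529. *Idh2*, a SIRT3 substrate studied in the ageing cochlea, was 11.52, 12.33 and 12.34 in WT and 10.92, 10.75 and 12.07 in *Cmah*-null mice, which overlap (-0.82, SE 0.42). SIRT3 controls these proteins by deacetylation, and their messenger RNA levels do not measure that.

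All 7 detected SIRT4 substrates were lower, with a median of -0.34, and 1 passed the rule, *Dbt*, a subunit of the branched-chain ketoacid dehydrogenase (-0.88, SE 0.28). Of 8 detected SIRT5 substrates 3 (37.5%) passed downwards and 0 upwards, beside 2.31% and 2.54% of all genes. The 3 were *Ucp1*, the uncoupling protein of brown fat (-2.11, SE 0.52), *Acadvl*, the very-long-chain acyl-CoA dehydrogenase (-1.29, SE 0.18), and *Pdha1*, which also stands among the SIRT3 substrates. With median scaling 0 SIRT3 substrates passed downwards and 2 upwards, and 1 SIRT5 substrate passed downwards and 2 upwards. Against the shift of 0.30 in detected probes, the median-scaled medians were -0.40 for SIRT3, -0.37 for SIRT4 and -0.05 for SIRT5 substrates. That shift covers probes of all brightness and was not matched to the brightness of these genes. Without *Cmah*-null replicate 3, 6 SIRT3 substrates passed downwards, and with *Cmah*-null replicates 1 and 2 averaged 4 did.

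**Figure D5:**
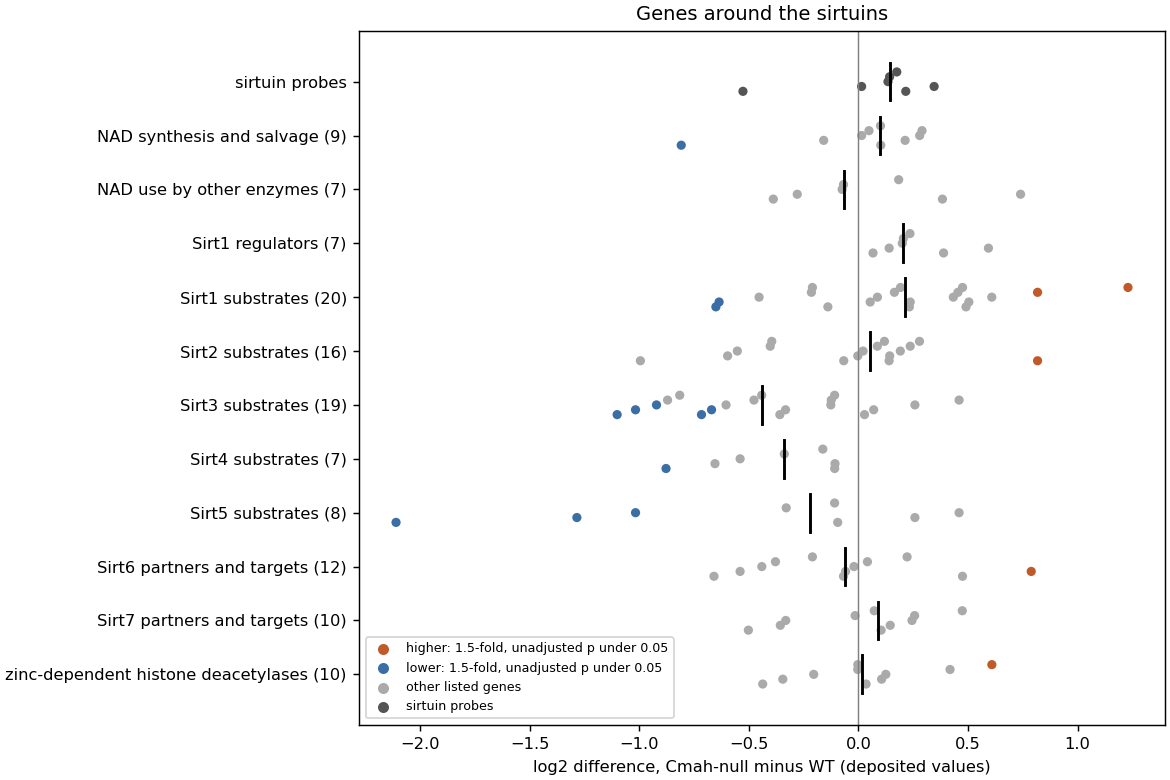
Log2 difference, *Cmah*-null minus WT, of the genes listed around the sirtuins, 1 point per gene from the deposited values, with the number of genes detected on at least 3 arrays in parentheses and a black bar at each median. Blue and orange points are lower and higher at 1.5-fold with an unadjusted limma p under 0.05, and the medians of the SIRT3 (-0.44) and SIRT4 (-0.34) substrates lie farthest below 0 in these values (-0.10 and -0.07 with median scaling).

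Brown fat, a tissue rich in mitochondria, has markers that were lower in *Cmah*-null mice, as *Sirt3* and these lists were in the deposited values. With median scaling *Sirt3* was at -0.03 and the medians of the SIRT3, SIRT4 and SIRT5 lists were -0.10, -0.07 and 0.25. That scaling put the median of all detected probes, of any brightness, at 0.30. *Ucp1* stands in both the SIRT5 list and the brown fat list, and *Ppargc1a* in both the SIRT1 substrate list and the brown fat list. Of 8 detected brown fat markers, of 10 listed, all were lower and 6 (75%) passed the rule, where 2.31% of all genes passed downwards. With median scaling 2 of these markers passed. The median of these markers was -1.23 in the deposited values and -0.75 with median scaling. Their summed level was 15.83 to 16.50 in WT and 14.37 to 15.10 in *Cmah*-null mice on the log2 scale, with no overlap. *Cidea* was at -2.01 (SE 0.42) beside *Ucp1* at -2.11. The brown fat genes *Dio2* and *Prdm16* were detected on 0 arrays. Of 14 skeletal muscle markers 13 were lower and 1 higher. By the rule 1 passed, *Mb*, myoglobin (-0.87, SE 0.17), and 0 passed with median scaling. The muscle median was -0.54 in the deposited values and -0.15 with median scaling, or -0.45 against the median of detected probes in that scaling. The summed muscle level was 18.10 to 18.87 in WT and 18.17 to 18.37 in *Cmah*-null mice, with WT replicate 3 below all *Cmah*-null arrays. The part of these markers in the values of *Sirt3* and of the mitochondrial lists was not tested. In such bulk tissue, fewer cells of a type and less RNA per cell cannot be told apart.

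The labelled tissue was checked against markers of the cochlea. Of 13 hair cell markers listed 9 were detected on at least 3 arrays, among them *Myo7a* (0.09, SE 0.10) and *Otof* (0.55, SE 0.19), while *Pou4f3* and *Slc26a5* were detected on 0 arrays and *Ocm* and *Cdh23* on 1. Of the support cell and stria markers 10 were detected, among them *Coch* and *Tecta*. The medians of these lists were 0.32 and 0.10 in the deposited values and 0.30 and 0.26 with median scaling. That scaling put the median of all detected probes, of any brightness, at 0.30. Some hair cell probes lay close to background, such as *Chrna9* at a mean of 7.47 in WT and 7.52 in *Cmah*-null mice. Of the hair cell markers *Atp2b2* passed the rule upwards (0.76, SE 0.28), where 2.54% of all genes did. The summed hair cell level was 11.96 to 12.30 in WT and 12.41 to 12.94 in *Cmah*-null mice. The brightest of these probes were *Espn* and *Atp2b2*, and each overlapped between genotypes. The part of this list in the *Sirt6* value was not tested. All 7 detected neuron markers were lower, with a median of -0.23 (-0.06 with median scaling). Downwards 1 passed the rule, *Prph* (-1.37, SE 0.36), where 2.31% of all genes did. Blood cell markers had a median of -0.03, which was 0.36 without *Cmah*-null replicate 3 and 0.38 with median scaling. Bone markers had a median of -0.21, which was -0.52 without that replicate and 0.17 with median scaling.

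Genes whose profiles over the 6 arrays lay nearest to each sirtuin, by the root mean square difference of log2 values centred on their own mean, were named by rule among probes detected on all 6 arrays. For *Sirt3* they were *Mrps5*, a protein of the mitochondrial ribosome (0.07), *Rab24*, a small GTPase (0.07), and *4833442J19Rik* (0.08), against a range of 0.69 in *Sirt3* itself. For *Sirt7* they were *Ccrk*, *Arfrp1* and *Cdh1*, at 0.02 to 0.05 against its range of 0.98. For *Sirt6* ILMN_2671176 they were *Chrnb3*, *Erf* and *Shkbp1*, at 0.02 to 0.03 against its range of 0.82. *Sirt1* lay nearest to *Ugcg*, *Scrn1* and *Tsr2*, and the neighbours of *Sirt2* included *Tecta*, a protein of the tectorial membrane, and *Sort1*. The *Sirt5* probes had different neighbours in spite of their shared bases, *AI597468*, *Lynx1* and *1700020C11Rik* for ILMN_2711045 and *Gtf2ird1*, *Nedd4l* and *Tex2* for ILMN_2707079. With 12410 probes and 6 arrays close neighbours exist for any profile, and these are given as a description.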

How the data were processed

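Cochlear RNA of 3 WT and 3 *Cmah*-null mice was measured on 1 array per sample. The authors deposited intensity values (average bead signal, not normalized), with bead standard errors, bead numbers and, per the file headers, a detection p-value for each probe against negative controls. The authors also deposited log2 values; these matched a quantile normalization of the log2 signals to within 5e-07. In that table the *Cmah*-null group is headed "old", and columns were matched by group and replicate number. It also holds the authors' own comparison (fold changes, an LPE statistic, adjusted p), which was not used, and 12 columns that repeat signals and detection p.

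The log2 values of all 25697 probes were compared under R 4.3.3 by limma 3.58.1, fitted without covariates and moderated with eBayes (two-sided, Benjamini-Hochberg over all probes), after a check on simulated data. Single values and within-array ratios were compared with an exact permutation test, two-sided. The records do not say how the replicates were collected, so p-values measure only the spread between these samples. The sirtuins and the gene lists were chosen with earlier results of these data known, and no list was given a test. A listed gene was read by its brightest probe and counted when detected on at least 3 arrays. Named genes are all sirtuin probes, up to 4 genes per list past 1.5-fold with an unadjusted p under 0.05 (with the largest differences) or else the 2 largest differences detected on all 6 arrays, the 3 nearest profiles of each sirtuin probe, and defining markers. *Idh2* and *Acadl* were named after their values were seen. Of the genes that the rule names, 1 is not reported here. Alternatives were neqc (offset 16), median scaling, a detection filter, the replicate number or the number of beads as a block, a trended and robust prior, averaging *Cmah*-null replicates 1 and 2, and leaving out each array. Raw signals as a further scaling of single probes, and list counts under other settings, were added after seeing the data. Python 3.11.15 with matplotlib 3.10.9 drew the figures.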

Additional observations from a re-analysis of the deposited data

How the results depend on the processing

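In all 14 alternatives 0 sirtuin probes passed an adjusted limma p of 0.05, and the adjusted p of *Sirt3* ranged from 0.110 to 0.998. Its log2 difference ranged from -0.60 to -0.01 over the 14, and from -0.60 to -0.48 with an array left out. The detection filter, the replicate block and the trended and robust prior leave it at -0.53 by construction. The -0.01 of raw signals (SE 0.29) and the -0.03 of median scaling (SE 0.26) were far smaller than their SE, so their sign carries no weight. Probes at an unadjusted p under 0.05 numbered 3 with beads as a block (1 in the deposited values) and 1 to 2 with an array left out. At 1.5-fold with that p they numbered 1 with median scaling and 1 with raw signals (*Sirt7* each time), against 0, and 0 to 1 with an array left out. The shares of all probes in these settings are not given here, so a change in these counts cannot be read as particular to the sirtuins. Signs turned in *Sirt5* ILMN_2711045 (-0.13 to 0.12 with an array left out, below 0 without WT replicate 3, at -0.093, and without *Cmah*-null replicate 3), *Sirt5* ILMN_2707079 (-0.037 to 0.26, lowest without *Cmah*-null replicate 3), *Sirt7* (-0.078 to 0.37, lowest without WT replicate 1) and the undetected *Sirt6* ILMN_2684910 (-0.083 with median scaling, -0.044 with beads as a block, -0.057 with raw signals, and -0.053 without WT replicate 3 to 0.17 without WT replicate 1). The cause was not tested. All 6 *Sirt3* ratios kept their sign in each of 8 alternatives, with differences from -1.39 to -0.32.

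Median scaling moved 9 list medians by more than their SD over replicates, to 0.24 for NAD synthesis, 0.58 for SIRT1 regulators, 0.57 for SIRT1 substrates, 0.21 for SIRT2 substrates, -0.10 for SIRT3 substrates, 0.25 for SIRT5 substrates, 0.19 for SIRT6, 0.47 for SIRT7 and 0.33 for the zinc-dependent deacetylases, beside the shift of 0.30 in detected probes. With neqc the NAD synthesis median was 0.23. With an array left out the medians ranged from -0.074 to 0.18 for NAD synthesis, 0.060 to 0.30 for SIRT1 substrates and -0.16 to 0.084 for SIRT2 substrates, and from 0.070 to 0.31 for SIRT1 regulators.

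The replicate numbers do not pair the samples: the deviations of same-numbered arrays correlated at 0.02, -0.17 and 0.01. With the replicate block the *Sirt3* difference was -0.53 with an adjusted limma p of 0.526, and 1 sirtuin probe again had an unadjusted p under 0.05. The number of arrays limits all of these comparisons, and the *Sirt6* probes lie close to background.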
